A study of Arabidopsis thaliana with 12 samples.

Results

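The phosphate condition response of KC seedlings was taken as the difference between 3 libraries labelled P- and 3 libraries labelled P+, all of the KC genotype. These 6 libraries were chosen by their sample titles and make up 6 of the 12 RNA-seq libraries of the series. The other 6 come from phod2 seedlings in the same conditions. All libraries were made from total RNA of whole Arabidopsis thaliana seedlings aged 8 days, and the design text gives 3 biological replicates. The labels spell out neither KC nor the lesion of phod2, and they name no ecotype, transgene, medium, phosphate concentration, length of treatment or time of harvest. P+ and P- were read as high and low phosphate from the terms HP and LP in the design text. The deposited table heads the 3 KC P+ columns WT while the sample titles call them KC, so if WT and KC were different lines, every difference below would include that between the lines.

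Plants take up phosphorus as inorganic phosphate, which is scarce in most soils. When the internal supply falls, SPX proteins release PHR1, a MYB-type transcription factor that binds the P1BS motif in the promoters of starvation genes. These genes encode high-affinity transporters, secreted phosphatases and ribonucleases, enzymes that replace membrane phospholipids by galactolipids and sulfolipids, and a set of small RNAs. Among the latter, miR399 represses PHO2, an enzyme that marks transporters for destruction, and the long RNA IPS1 holds miR399 back as a decoy. The circadian clock is a second system that moves many transcripts of a seedling, with CCA1 and LHY high around dawn and TOC1 and its partners high around dusk. The morning proteins repress evening genes through a short promoter motif, the evening element.

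The sequences behind the miR399 circuit are shown first, because PHO2, IPS1 and a MIR399 gene all enter the results. They were read from the RefSeq assembly TAIR10.1, with the seed of miR399d (bases 2 to 8) in capitals, and with capitals in the target sites for bases that pair with the miRNA.
miR399d: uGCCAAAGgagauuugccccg
IPS1 site: ttGGGCAAcTtctaTCCTTTGGCA
PHO2 site: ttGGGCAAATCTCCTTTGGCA
The mature miR399d lies at chr2:14442988-14443008 on the minus strand. The IPS1 site, at chr3:3051224-3051247 on the plus strand in the single exon of the gene, paired with 17 of 21 bases and carried an insert of 3 unpaired bases. The PHO2 site shown, at chr2:14281884-14281904 on the minus strand, paired with 19 of 21 bases without an insert. It is 1 of 5 such sites in PHO2, all in exon 2 of 9 (5′ UTR), upstream of the coding start, and the other 4 paired with 18 bases.

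Promoter stretches of panel genes were taken from the same assembly, each with the motif in capitals. The genes were chosen because they hold the motif, so the stretches do not show how common it is. Shares over all tested genes and by list are given with the promoter motifs below. The first 4 hold P1BS (GNATATNC), the next 2 the evening element (AAATATCT, here partly in its reverse complement) and the last 2 the G-box (CACGTG), a motif bound by light and clock regulators.
SPX3: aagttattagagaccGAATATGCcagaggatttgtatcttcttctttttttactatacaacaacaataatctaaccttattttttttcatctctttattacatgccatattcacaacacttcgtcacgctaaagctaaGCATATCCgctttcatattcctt
GDPD1: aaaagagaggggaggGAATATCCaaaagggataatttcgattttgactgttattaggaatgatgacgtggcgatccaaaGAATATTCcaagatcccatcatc
PS2: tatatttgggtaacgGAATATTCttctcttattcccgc
PPCK1: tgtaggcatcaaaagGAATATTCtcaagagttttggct
TOC1: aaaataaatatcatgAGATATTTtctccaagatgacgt
ELF4: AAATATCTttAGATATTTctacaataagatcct
CCA1: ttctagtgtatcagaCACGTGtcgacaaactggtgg
LHY: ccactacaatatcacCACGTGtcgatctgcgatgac
These stretches lie upstream of the annotated gene starts, at chr2:18606182-18606342 (plus strand) for SPX3, chr3:350051-350152 (minus) for GDPD1, chr1:27466543-27466580 (minus) for PS2 and chr1:2752082-2752119 (plus) for PPCK1. The clock stretches are chr5:24674797-24674834 (plus) for TOC1, chr2:16735171-16735203 (minus) for ELF4, chr2:19245383-19245418 (plus) for CCA1 and chr1:37931-37966 (minus) for LHY. SPX3 and GDPD1 carried 2 P1BS matches each, and ELF4 had 2 evening elements 10 bases apart.

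The 6 KC libraries held 16821084 to 23327960 counts and 23216 to 23609 genes with a count. On the first principal component, which took 90.9% of their variance, the P+ libraries lay between -74.8 and -73.3 and the P- libraries between 73.2 and 74.6. The second took 2.43%, with KC P+ replicate 2 at 24.0 and the other 5 between -12.7 and 1.88. Root and shoot markers were present in all 6 libraries, with summed levels of 179.8 to 194 CPM (counts scaled to a common library size) in P+ and 157 to 159 in P- for 15 root genes, and of 177 to 184 and 168 to 174 for 9 shoot genes. Seed markers summed to at most 5.93 CPM and flower and pollen markers to at most 1.98. Nuclear ribosomal RNA genes took 0.0399% to 0.0409% of the counts in P+ and 0.212% to 0.265% in P-, and short transcripts tended to be higher in P-: the median log2 change was 0.28 for exonic lengths of 42 to 891 bases and -0.14 for those of 3187 to 16614 bases. What part these shifts have in the results was not tested. In whole seedlings, more cells of a type and more RNA per cell cannot be told apart.

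In KC, 2286 genes were higher in P- (10.9% of the 20891 tested) and 2006 were lower (9.6%), so that 4292 genes (20.5%) were called. A call required an adjusted p of at most 0.05 in edgeR's quasi-likelihood test and a change of at least 2-fold, the limits of the design text. Without the limit on fold, 13483 genes passed. Changes of at least 8-fold were seen in 317 genes that rose and 214 that fell, and changes of at least 64-fold in 48 and 26. The 3 values of one condition lay outside the range of the other in 4251 of the 4292 called genes. The same held upwards for 37.7% and downwards for 37.5% of all tested genes.

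**Figure D1:**
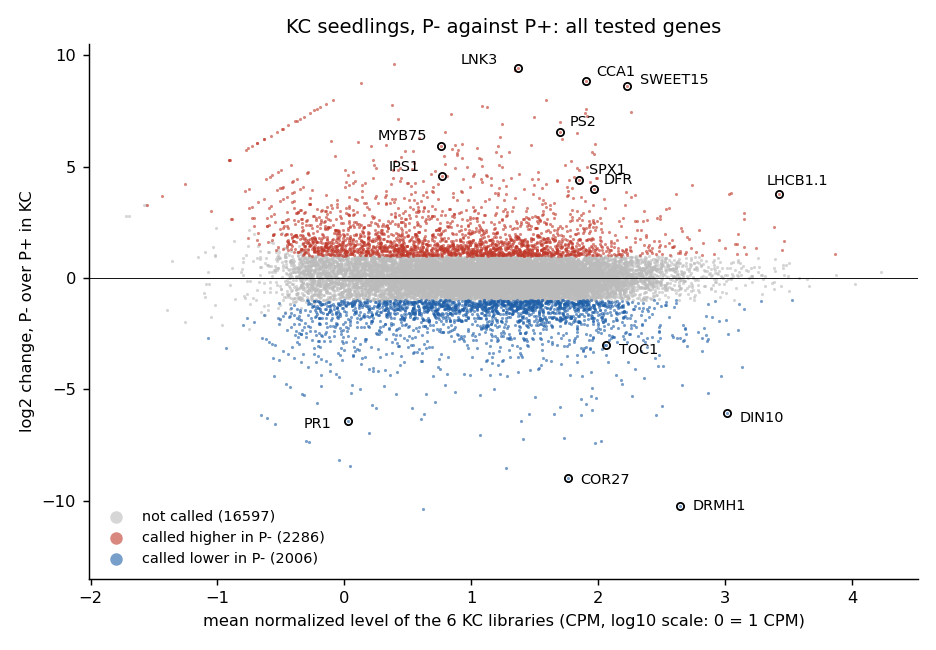
Log2 change of P- over P+ in KC (vertical axis) against the mean normalized level of the 6 KC libraries (CPM, log10 scale), 1 point per tested gene with a count in KC. The 2286 genes called higher are red and the 2006 called lower blue, and named circles mark examples, among them CCA1 and LNK3 at log2 8.85 and 9.42, COR27 at -8.96, PS2 at 6.56, DIN10 at -6.08, IPS1 at 4.59 and SPX1 at 4.41.

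The largest rises by the naming rule were those of LNK3, CCA1, SWEET15, COL7, PRR9 and OCT1. SWEET15, a sucrose exporter gene (AT5G13170, chromosome 5, 4181042 to 4183354), stood at 0.765, 0.927 and 0.872 CPM in the P+ libraries and at 334, 340.4 and 334 in the P- libraries. OCT1, which encodes an organic cation transporter (AT1G73220, chromosome 1, 27538190 to 27540235), stood at 0.1701, 0 and 0.174 in P+ and at 24.999, 28.7 and 25.6 in P-. COL7, a CONSTANS-like gene (AT1G73870, chromosome 1, 27778984 to 27780809), went from 0.425, 0.327 and 0.131 to 72.03, 80.04 and 77.9. The naming rule took only genes without overlap between the conditions, and the fitted rises of these 3 genes were 393-fold, 204-fold and 256-fold. The largest falls were those of DRMH1, COR27, DJC76, JMJ30, FKF1 and PRR3. DRMH1, a dormancy-associated gene (AT2G33830, chromosome 2, 14308754 to 14310608), stood at 865, 897 and 891 in P+ and at 0.689997, 0.665 and 0.839 in P-, a change of -10.23 ± 0.091 (log2 ± SE, edgeR adjusted p = 2.44e-17). DJC76, a plastid J-domain chaperone gene (AT5G23240, chromosome 5, 7826732 to 7828724), fell from 184, 187 and 195 to 1.33, 1.38 and 0.539. LNK3, CCA1, PRR9, COR27, JMJ30, FKF1 and PRR3 belong to the clock and are described with it.

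The switches of phosphate signalling moved in both directions. Of 25 signalling genes tested, 8 rose, 5 fell and 12 were not called, with a median log2 change of 0.25 against 0.008 over all tested genes. The counts of this and every later list are to be read against 10.9% higher and 9.6% lower over all tested genes. SPX1 (AT5G20150, chromosome 5, 6802282 to 6803655), whose protein restrains PHR1 while phosphate is ample, stood at 6.59, 6.66 and 5.801 CPM in P+ and at 138, 127 and 139 in P-. SPX3 (AT2G45130, chromosome 2, 18606410 to 18607853), a second nuclear SPX gene, stood at 0.0851, 0.218 and 0.218 and at 4.94, 5.37 and 5.09. SPX2 rose by less, from 12.5, 14.4 and 13.6 to 41.8, 40.7 and 40.7. All P- values of these genes lay above all P+ values, with rises of 21.2-fold for SPX1 (edgeR adjusted p = 1e-13), 29.2-fold for SPX3 and 3.05-fold for SPX2. SPX4, whose protein keeps PHR1 out of the nucleus, went the other way without reaching the fold limit, from 15.1 ± 0.3497 CPM (mean ± SD, n = 3) to 9.72 ± 0.9596 (log2 -0.63 ± 0.11). PHR1 itself (AT4G28610, chromosome 4, 14132811 to 14135292) stood at 47.3, 52.3 and 49.9 in P+ and at 49.04, 50.2 and 47.6 in P-. Its groups overlapped, and the log2 change was -0.025 ± 0.076 (SE, edgeR quasi-likelihood adjusted p = 0.791), so that a difference of 2-fold lay far outside its error. PHL1, its closest relative, and UNE16, annotated as Homeodomain-like, were lower in P-, at log2 -0.69 ± 0.080 and -1.34 ± 0.097, of which only the latter was called.

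The miR399 arm was measured through its long transcripts. IPS1 (AT3G09922, chromosome 3, 3050989 to 3051530) stood at 0.553, 0.491 and 0.349 CPM in P+ and at 10.9, 12.3 and 10.7 in P-. AT4, a second decoy RNA of the same family, stood at 7.87, 9.601 and 7.02 and at 111, 96.8 and 107. Neither overlapped, and the rises were 24.05-fold (edgeR adjusted p = 9.63e-09) and 12.9-fold. The gene MIR399D, chosen after its values were seen, had no count in any P+ library and 31, 18 and 14 counts in the 3 P- libraries, so the increase was at least 25.4-fold when the P+ group is set to its floor of 3 summed counts. MIR399C had 0, 0 and 0 counts in P+ and 1, 1 and 7 in P-. Counts of such loci come from primary transcripts and not from the mature miRNA. PHO2 (AT2G33770, chromosome 2, 14277558 to 14283113), the target that carries the 5 sites described above, stood at 137, 141 and 138 in P+ and at 239, 236 and 229 in P-. The target was thus higher and not lower in P-, without overlap, but at 1.69-fold it stayed under the limit of the call (edgeR adjusted p = 0.00146). NLA, a ubiquitin ligase gene that also acts on phosphate transporters, fell from 16.01 ± 1.19 to 7.04 ± 0.814 (log2 -1.19 ± 0.11).

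Inositol pyrophosphates carry the phosphate signal to SPX proteins. IPK1, a kinase gene of that pathway, rose from 16.7 ± 0.568 to 41.1 ± 3.35, ITPK1 was higher by less than 2-fold (log2 0.55 ± 0.058), and AT3G01310 (annotated as phosphoglycerate mutase-like) fell 7.98-fold, from 192, 199 and 196 to 24.999, 26.6 and 21.9. Among the transcription factors of the list, HRS1, a repressor gene of the root response to nitrate and phosphate, fell from 34.9, 36.7 and 34.9 to 8.12, 9.14 and 7.73, while its relative HHO2 rose from 40.2, 38.4 and 38.7 to 91.6, 88.9 and 92.9. The 2 relatives thus moved apart without overlap. WRKY45, an activator gene of phosphate uptake, rose 2.11-fold and WRKY42, a repressor gene of phosphate export, fell 2.25-fold. WRKY75 was lower by less than 2-fold (log2 -0.65 ± 0.16), ZAT6 and MYB62 did not pass the test, and WRKY6 was higher by 1.93-fold.

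Of 27 transporter and transport-related genes, 23 had counts enough for a test, 11 rose and none fell, with a median of 0.96. Among the plasma membrane importers, PHT1;4 (AT2G38940, chromosome 2, 16257157 to 16260253) stood at 8.93, 9.98 and 7.94 CPM in P+ and at 62.8, 62.6 and 67.8 in P-, a rise of 7.22-fold (edgeR adjusted p = 2.88e-12). PHT1;2 rose 9.302-fold, from 0.936, 0.818 and 1.09 to 9.18, 9.47 and 8.15. PHT1;1 (AT5G43350, chromosome 5, 17399769 to 17402158), also an uptake transporter of roots, stood at 80.8, 80.8 and 79.5 and at 131, 132 and 126, which did not overlap but was only 1.61-fold apart. PHT1;3 and PHT1;6 had no count in any KC library. PHT1;1, PHT1;2 and PHT1;3 are close copies of one another, so their reads may have been assigned to the wrong copy. PHT1;5 rose from 0.374 ± 0.138 to 1.05 ± 0.0429, PHT1;9 did not pass the test (log2 0.62 ± 0.44), and PHT1;7 had 0, 1 and 0 counts in P+ and 2, 12 and 4 in P-, a ratio of 21.8 with a 95% counting interval of 3.44 to 907, whose call was lost without KC P- replicate 2. PHF1 (AT3G52190, chromosome 3, 19353867 to 19357261), which brings PHT1 proteins out of the endoplasmic reticulum, rose 2.74-fold, from 12.9, 12.8 and 10.4 to 35.1, 30.9 and 32.6.

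Export and organelle transporters differed among themselves. PHO1 (AT3G23430, chromosome 3, 8387398 to 8393467), which loads phosphate into the xylem, stood at 116, 113 and 116 in P+ and at 141, 148 and 138 in P- and was not called (log2 0.31 ± 0.10, edgeR adjusted p = 0.0176). Its homologue PHO1;H1 (AT1G68740, chromosome 1, 25812449 to 25816983) stood at 17.2, 14.5 and 16.1 and at 34.8, 33.5 and 29.96, and its 2.05-fold rise fell under the limit without KC P+ replicate 2 or KC P- replicate 1. The plastid transporter gene PHT2;1 rose from 104, 105 and 102 to 381, 369.5 and 372, and the plastid gene PHT4;1 from 35.9 ± 1.73 to 97.7 ± 2.92. All values of both genes were higher in P-. PHT3;2, a mitochondrial carrier gene, rose 2.93-fold, whereas the more abundant PHT3;1 differed by only 1.19-fold. G3Pp1 and G3Pp2, annotated as putative glycerol-3-phosphate transporters, rose from 3.27, 3.49 and 3.71 to 184, 166 and 175 and from 1.23, 1.04 and 1.396 to 8.76, 8.97 and 7.79. The SPX-domain transporters AT1G63010 (AT1G63010, chromosome 1, 23347561 to 23352831) and AT4G22990 changed by less than 2-fold in opposite directions, at log2 0.37 ± 0.11 and -0.92 ± 0.11.

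Phosphatases and ribonucleases, which free phosphate from organic sources, rose in 10 of 17 tested genes and fell in none, with a median of 1.70. PAP17 (AT3G17790, chromosome 3, 6089381 to 6091231) encodes an acid phosphatase of the purple type and was measured at 4.13, 3.76 and 4.798 CPM in P+ and at 129.7, 126 and 136 in P-. PS2 (AT1G73010, chromosome 1, 27464528 to 27466348), a phosphatase gene of the same response, stood at 1.28, 0.927 and 0.872 and at 98.2, 104 and 92.98. RNS1 (AT2G02990, chromosome 2, 873506 to 874886), a secreted ribonuclease gene, stood at 1.02, 0.382 and 0.872 and at 4.56, 3.77 and 4.43. The conditions did not overlap in any of the 3, and the rises were 30.7-fold, 94.6-fold and 5.39-fold (edgeR adjusted p = 2.26e-14, 7.28e-14 and 6.2e-07). PEPC1, annotated as an inorganic pyrophosphatase, rose 42.1-fold, PAP14 22.4-fold and PAP10, a root-surface phosphatase gene, 3.25-fold. PAP5 had no count in P+ and 29, 37 and 21 counts in P-, a difference of at least 35.1-fold by the same floor. PAP25 likewise had none in P+ and 5, 2 and 6 in P-, a difference of at least 5.24-fold. In contrast, PAP26, the main vacuolar and secreted acid phosphatase gene, stood at 246, 243 and 246 and at 251, 254 and 252 and was not called (log2 0.040 ± 0.052). RNS2 did not pass the test, RNS3 differed by less than 2-fold, and PAP7 was lower by 1.48-fold.

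Membrane lipid genes rose in 9 of 20 tested members and fell in 1, with a median of 0.79. For galactolipids, MGD3 (AT2G11810, chromosome 2, 4743162 to 4746813) stood at 1.49, 1.31 and 1.66 CPM in P+ and at 9.45, 8.53 and 10.01 in P-, and MGD2 rose from 8.55, 7.64 and 8.897 to 24.9, 24.9 and 27.5. MGD1, the housekeeping synthase gene, was lower in P- by 1.74-fold. The starvation-type and housekeeping synthase genes thus went opposite ways, both without overlap. DGD1, which adds the second galactose, rose from 15.2, 18.5 and 18.1 to 98.99, 106 and 101, but DGD2 differed by only 1.34-fold. The sulfolipid synthesis genes SQD1 and SQD2 (AT5G01220, chromosome 5, 86543 to 90117) rose 4.39-fold and 2.42-fold, with SQD2 at 74.7, 70.5 and 72.4 in P+ and at 181, 172 and 174 in P-. Among genes that break phospholipids down, NPC4 (AT3G03530, chromosome 3, 842499 to 845096), a phospholipase C gene, rose from 2.47, 2.67 and 1.88 to 13.9, 13.7 and 15.8, and PLDP2, a phospholipase D gene, from 1.87, 2.51 and 2.18 to 24.2, 23.5 and 23.2. GDPD1 (AT3G02040, chromosome 3, 348167 to 350010), whose enzyme frees glycerol-3-phosphate, rose from 12.2, 13.9 and 14.4 to 113, 119 and 100.4 (edgeR adjusted p = 2.3e-12), and GDPD6 rose 94.4-fold. GDPD2, of the same family, was the member that fell, from 105, 105 and 108.2 to 33.2, 31.1 and 31.99. PAH1, a phosphatidate phosphohydrolase gene, was higher by 1.78-fold, and PAH2 did not pass the test.

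**Figure D2:**
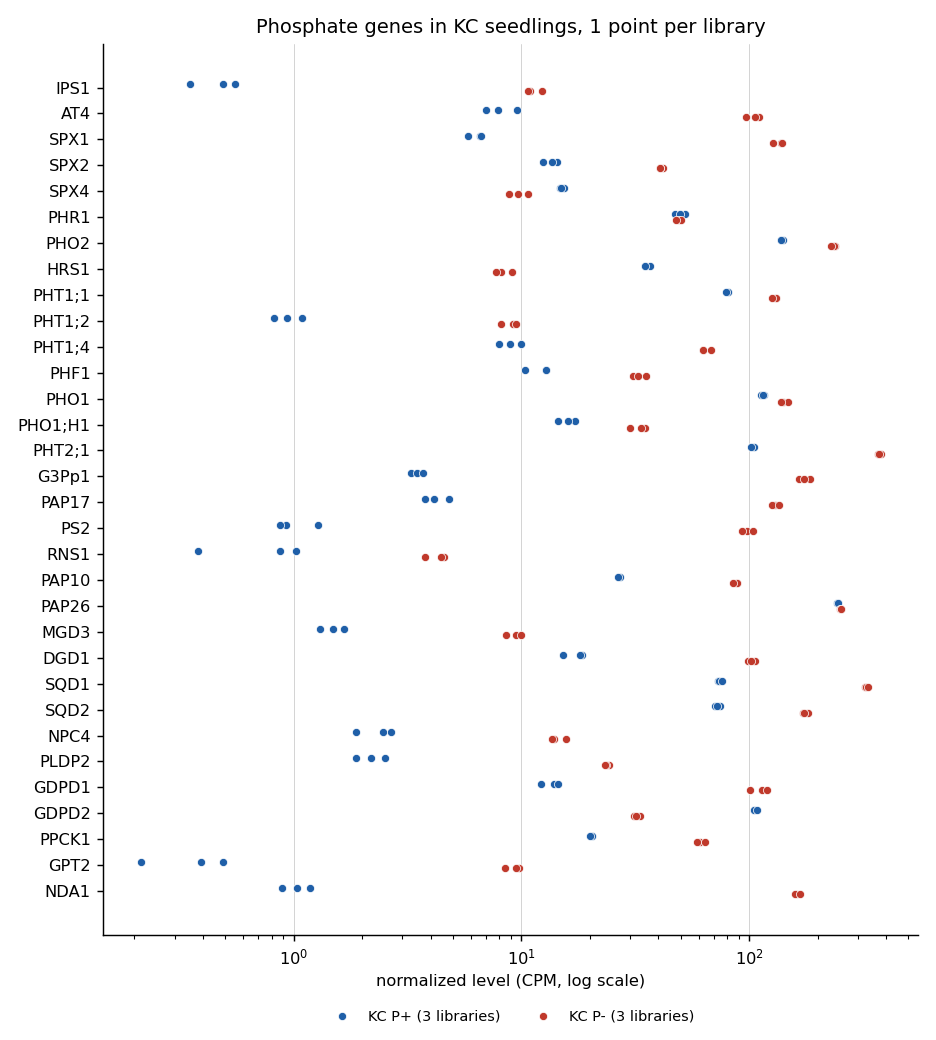
Normalized level (CPM, log axis) of 32 phosphate genes in the 3 KC P+ libraries (blue) and the 3 KC P- libraries (red), 1 point per library. The red points lie to the right of the blue ones for most genes, overlap with them for PHR1, and lie to the left for SPX4, HRS1 and GDPD2.

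The list of carbon metabolism holds enzymes that bypass phosphate-dependent steps, and also translocator, kinase and starch synthesis genes. Of its 15 tested genes 11 rose and none fell, with a median of 1.34. NDA1, a mitochondrial NADH dehydrogenase gene that is also known for its daily rhythm, stood at 0.893, 1.04 and 1.18 CPM in P+ and at 160.3, 159 and 168 in P-. GPT2, a plastid sugar-phosphate translocator gene, stood at 0.213, 0.491 and 0.393 and at 8.44, 9.75 and 9.47. PPCK1 (AT1G08650, chromosome 1, 2752124 to 2753809), the kinase gene that activates phosphoenolpyruvate carboxylase, stood at 20.5, 20.4 and 20.1 and at 60.99, 64.3 and 59.1. The conditions did not overlap in any of these, and the rises were 156-fold, 25.5-fold and 3.03-fold. The carboxylase gene PPC1 rose 2.31-fold, the starch synthesis gene APL3 5.32-fold, the sucrose synthase gene SUS3 3.27-fold, the alternative oxidase gene AOX1A 2.54-fold and the dehydrogenase gene NDB2 4.71-fold.

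Of 9 tested genes of local phosphate sensing at the root tip, 3 rose and none fell, with a median of 0.55. ALMT1 (AT1G08430, chromosome 1, 2658602 to 2661310), a malate exporter gene, stood at 9.87, 8.18 and 8.68 CPM in P+ and at 23.3, 20.6 and 22.2 in P- and rose 2.47-fold (edgeR adjusted p = 2.71e-08). STAR1, a transporter subunit gene, rose 2.604-fold and the peptide gene CLE14 3.17-fold. STOP1, whose product drives ALMT1, did not pass the test (log2 -0.085 ± 0.061), nor did LPR2 and PDR2, which encode a ferroxidase and an ATPase of the same pathway. LPR1 was higher by 1.46-fold. Root hair genes rose in 7 of 14 and fell in none (median 0.93). RHD6, a bHLH gene that starts hair growth, rose from 2.21, 2.84 and 3.84 to 7.27, 6.04 and 7.13, whereas GL2, which suppresses hairs, was lower by 1.78-fold.

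Flavonoid and anthocyanin enzymes rose in 17 of 17 tested genes, with a median of 2.72. Anthocyanins are red pigments that gather in phosphate-starved shoots. Early in the pathway, CHS (AT5G13930, chromosome 5, 4488476 to 4490264), the chalcone synthase gene, stood at 214, 226 and 219.8 CPM in P+ and at 797, 768 and 769 in P-. Late in the pathway, DFR (AT5G42800, chromosome 5, 17164093 to 17166032), the reductase gene on the way to anthocyanins, stood at 11.7, 10.6 and 9.77 and at 173, 173 and 172. Neither overlapped, and the rise was 3.54-fold for CHS and 16.1-fold for DFR (edgeR adjusted p = 6.36e-10 and 2.16e-14). The phenylpropanoid genes PAL1, PAL2 and C4H rose 3.17-fold, 2.28-fold and 3.29-fold, FLS1 of the flavonol branch 4.21-fold, and the late genes LDOX, UF3GT and UGT75C1 28.9-fold, 22.5-fold and 18.6-fold. Of 13 regulators tested, 6 rose and none fell (median 0.70). MYB75 (AT1G56650, chromosome 1, 21233555 to 21235292), an activator gene of anthocyanin synthesis, stood at 0.0851, 0.273 and 0.218 in P+ and at 12.4, 12.9 and 9.05 in P-. MYB90 (AT1G66390, chromosome 1, 24763941 to 24765541) had 1, 0 and 0 counts in P+ and 9, 11 and 19 in P-, a ratio of 47.1 with a 95% counting interval of 7.98 to 1909. TT8, their bHLH partner gene, rose 13.04-fold. The flavonol regulator gene MYB111 did not pass the test (log2 0.037 ± 0.16), and TTG1, the WD40 partner, was lower by 1.37-fold.

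Of 23 sulfate genes tested 13 rose and none fell (median 1.15). APR1 (AT4G04610, chromosome 4, 2324878 to 2327064), a key reductase gene of sulfate assimilation, stood at 21.7, 19.4 and 23.1 CPM in P+ and at 313, 302 and 319 in P- (edgeR adjusted p = 3.78e-14). LSU1 and LSU2, small-protein genes that respond to low sulfur, rose 40.1-fold and 26.7-fold. SULTR1;1 (AT4G08620, chromosome 4, 5500313 to 5506313), the high-affinity sulfate importer gene of roots, stood at 1.36, 1.15 and 1.74 and at 3.66, 3.16 and 2.696 and rose 2.22-fold. SULTR1;2 was higher by 1.73-fold, under the limit, and the vacuolar exporter genes SULTR4;1 and SULTR4;2, marker genes of sulfur shortage, were lower at log2 -0.21 ± 0.063 and -0.44 ± 0.086. The sulfur list therefore did not move as one.

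Of 27 iron genes tested, 10 rose and 3 fell (median 0.28). IRT1 (AT4G19690, chromosome 4, 10707344 to 10709015), the iron importer gene of the root epidermis, stood at 2.81, 3.11 and 3.31 CPM in P+ and at 50.4, 48.97 and 45.9 in P-, and the ferric reductase gene FRO2 at 2.25, 1.47 and 1.79 and at 31.3, 30.9 and 31.03. FER1 (AT5G01600, chromosome 5, 227953 to 230051), which encodes an iron store, stood at 358, 354 and 373 and at 806, 793 and 816. These 3 genes were higher in P- without overlap, at 15.7-fold for IRT1, 16.6-fold for FRO2 and 2.23-fold for FER1. FER4, another ferritin gene, fell 2.39-fold, so the ferritin genes did not move as one. The nicotianamine synthase genes NAS2, NAS3 and NAS4 rose 21.96-fold, 6.44-fold and 2.85-fold, though reads may be shared among these copies. FIT, the main regulator of IRT1, was higher by only 1.31-fold, BHLH38 rose 3.64-fold, BHLH39 did not pass the test, and BHLH100 fell from 1.11, 1.25 and 1.003 to 0.0531, 0 and 0.1797.

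Of 7 zinc genes tested, 3 rose and 1 fell (median 0.33). The largest rise was that of HMA2, a zinc export pump gene and not an importer gene, at 2.86-fold. The calls of the importer genes ZIP9 and ZIP1 were lost in at least 1 case when 1 KC library was left out. ZIP5, also an importer gene, fell (log2 -1.08 ± 0.18). Of 15 nitrate and ammonium genes tested, 2 rose and 2 fell (median 0.022), near the shares of all tested genes, 10.9% higher and 9.6% lower. NRT2.1 (AT1G08090, chromosome 1, 2524023 to 2526322), a nitrate importer gene, stood at 2.296, 2.07 and 2.44 CPM in P+ and at 6.53, 6.87 and 6.23 in P-. The ammonium importer gene AMT1;2 rose from 20.1, 17.3 and 18.8 to 149.5, 150.0 and 151, whereas BT2, a gene that responds to nitrate, sugar and the clock, fell from 600.5, 596 and 612 to 41.5, 38.7 and 37.1. The nitrate reductase genes NIA1 and NIA2 did not pass the test (log2 0.13 ± 0.079 and 0.013 ± 0.098).

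Clock genes differed between the conditions, and the medians of the clock lists lay farther from 0 than those of the phosphate lists. Of 14 morning and early-day genes 10 rose and 1 fell (median 4.98), and of 14 afternoon and evening genes 1 rose and 11 fell (median -3.79), against 10.9% and 9.6% of all tested genes. CCA1 (AT2G46830, chromosome 2, 19245591 to 19248915), a MYB-related repressor gene of the dawn, stood at 0.638, 0.164 and 0.174 CPM in P+ and at 164, 159 and 155 in P-. LHY (AT1G01060, chromosome 1, 33365 to 37871), its close relative, stood at 0.978, 1.04 and 0.4798 and at 163, 164 and 151. The groups were separated by a wide gap in both, with rises of 461-fold and 193-fold (edgeR adjusted p = 2.68e-13 and 2.23e-13). RVE8, which activates evening genes from the morning on, rose from 0.595, 0.655 and 0.567 to 30.997, 32.3 and 28.8, and its partner genes LNK1 and LNK2 from 3.105, 2.89 and 2.62 to 185, 182 and 189 and from 9.101, 8.24 and 7.502 to 161, 167 and 161. LNK3 (AT3G12320, chromosome 3, 3923515 to 3925502) stood at 0.0851, 0.0546 and 0.0436 in P+ and at 48.2, 47.2 and 44.6 in P-. PRR9 (AT2G46790, chromosome 2, 19232607 to 19235179), the earliest of the pseudo-response regulator genes of the day, stood at 0.1701, 0 and 0.131 and at 23.99, 24.5 and 23.8. RVE2, a MYB-related gene of the same family as CCA1, was the morning-list member that fell, from 84.9, 81.8 and 84.4 to 9.61, 9.805 and 12.04. PRR7, which follows PRR9 in the day, did not pass the test (log2 0.23 ± 0.099, edgeR adjusted p = 0.0565).

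On the evening side, TOC1 (AT5G61380, chromosome 5, 24674963 to 24678550), a repressor gene of CCA1 and LHY, stood at 211, 199 and 204 CPM in P+ and at 24.1, 25.1 and 26.5 in P-. ELF4 (AT2G40080, chromosome 2, 16734294 to 16734953), a member of the evening complex, stood at 45.1, 43.97 and 46.9 and at 4.03, 4.54 and 3.59. Both fell without overlap, 8.09-fold and 11.1-fold (edgeR adjusted p = 5.13e-13 and 2.58e-12). The other evening-complex genes ELF3, LUX and BOA fell 8.88-fold, 3.34-fold and 17.1-fold. PRR5 fell from 26.2, 27.5 and 26.9 to 1.698, 1.05 and 1.14 and PRR3 (AT5G60100, chromosome 5, 24197971 to 24201415) from 49.2, 49.2 and 47.8 to 0.478, 0.443 and 0.779. COR27 (AT5G42900, chromosome 5, 17197641 to 17199910), a cold-responsive evening regulator gene, stood at 115, 112 and 116 in P+ and at 0.265, 0.222 and 0.1797 in P-, and its homologue AT4G33980 fell 148-fold. JMJ30 (AT3G20810, chromosome 3, 7275645 to 7278420), a histone demethylase gene, fell from 207, 212 and 211 to 1.698, 0.831 and 1.44, and FKF1 (AT1G68050, chromosome 1, 25508639 to 25510907), a blue-light receptor gene, from 21.8, 24.3 and 24.1 to 0.212, 0.222 and 0.0599. GI (AT1G22770, chromosome 1, 8061751 to 8067790) was the exception that rose, from 11.5, 13.1 and 12.4 to 41.3, 40.6 and 40.9 (3.32-fold, edgeR adjusted p = 1.36e-07). ZTL, a clock gene whose transcript is known to stay nearly level through the day, stood at 43.7, 42.3 and 47.6 and at 44.7, 38.2 and 43.02 with overlap (log2 -0.086 ± 0.079). The same order of P- over P+ was measured in phod2, at log2 9.28 for CCA1, 7.99 for LHY, -3.21 for TOC1 and -4.38 for ELF4. The labels give no harvest time, so the phosphate condition and the time of day at which each condition was harvested cannot be told apart, for the clock genes or for any other gene with a daily rhythm.

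**Figure D3:**
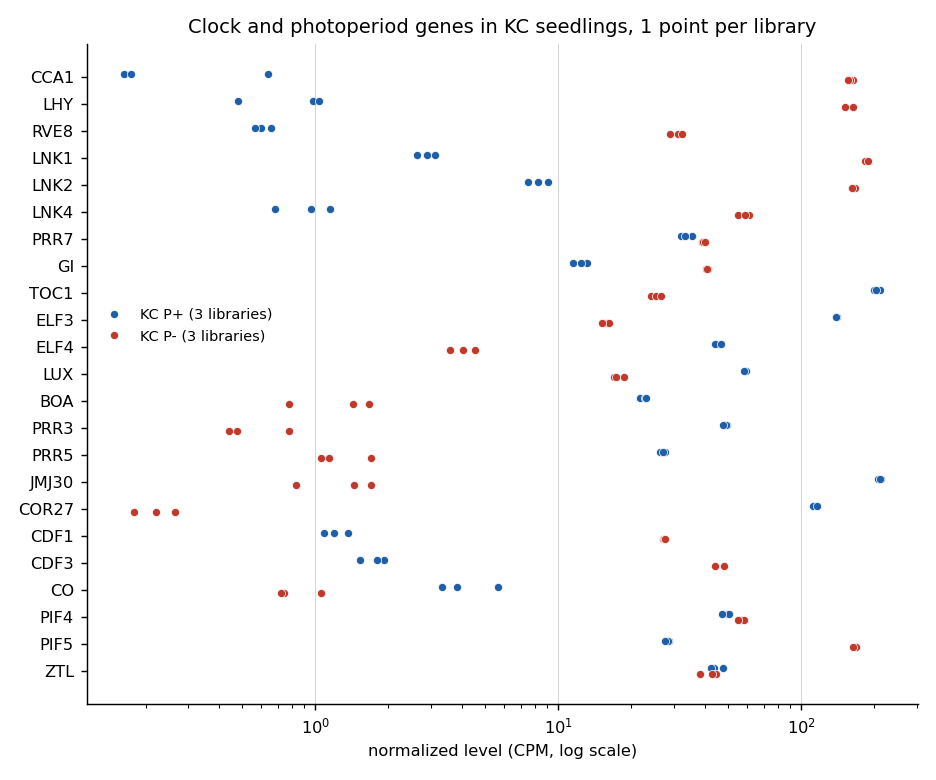
Normalized level (CPM, log axis) of 23 clock and photoperiod genes in the 3 KC P+ libraries (blue) and the 3 KC P- libraries (red), 1 point per library. Red points lie to the right for the morning genes at the top and to the left for TOC1 through COR27, and the 2 colours overlap for ZTL.

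Photoperiod genes rose in 5 of 9 and fell in 1 (median 1.99). CDF1, a repressor gene of CONSTANS, rose from 1.19, 1.36 and 1.09 to 26.96, 27.3 and 27.4, CDF3 rose 25.7-fold, and CO itself fell from 3.32, 3.82 and 5.67 to 0.743, 1.05 and 0.719. PIF5, a growth-promoting bHLH gene, rose from 28.5, 28.1 and 27.5 to 168, 168 and 163, but PIF4 differed by only 1.15-fold. Chlorophyll synthesis genes rose in 4 of 6 and fell in 1. CAO, which makes chlorophyll b, rose from 30.2, 31.5 and 29.9 to 298, 294 and 299, CHLH, a magnesium chelatase subunit gene, from 835 ± 4.16 to 4034 ± 78.1, and PORB, a light-dependent reductase gene, fell from 645, 657 and 667 to 113, 107 and 110.1. Nuclear photosynthesis genes rose in 7 of 21 and fell in none (median 0.45). LHCB1.1, an antenna protein gene, rose from 374, 358 and 361 to 4977, 4839.5 and 4968, while its near-identical neighbour LHCB1.3 was lower by 1.19-fold, so reads of the 2 copies may have been exchanged. RBCS1A, a Rubisco small-subunit gene, differed by 1.204-fold. Of 13 light genes 6 rose and none fell: ELIP2 and ELIP1, photoprotective protein genes, rose 170.4-fold and 74.7-fold, and HYH, a bZIP gene of light signalling, 9.18-fold.

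Cold and abscisic acid genes rose in 10 of 16 and fell in 2 (median 1.62). HAI1, a protein phosphatase gene of abscisic acid signalling, rose from 3.998, 4.15 and 4.23 to 69.3, 67.2 and 68.7, RD29B rose 12.1-fold and ABI1 3.28-fold, whereas COR15B, a cold-protective protein gene, fell from 98.5, 99.8 and 98.2 to 1.698, 1.44 and 2.28. Genes of sugar starvation and senescence went both ways, with 4 higher and 5 lower of 11 (median -0.70). DIN10, a dark-inducible gene, fell from 2054, 2044 and 2016 to 30.7, 31.02 and 28.5 (log2 -6.08 ± 0.066, edgeR adjusted p = 1.79e-16), and SEN1 and DRM1 fell 42.7-fold and 70.8-fold. The senescence regulator gene ORE1 rose 3.77-fold and the chlorophyll breakdown gene NYE1 2.63-fold. SAG12, a late senescence gene, had no count in any KC library. Autophagy genes were mostly not called, with 2 of 11 lower: ATG8E fell 3.95-fold and ATG8D 2.76-fold.

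The counts for hormone and defence lists are to be read against 10.9% higher and 9.6% lower over all tested genes, and lists of this size lie near those shares with a single call. Jasmonate genes rose in 3 of 15 and fell in 3: VSP2, a storage protein gene, rose 3.73-fold, PDF1.2A, a defensin gene, rose 2.58-fold and JAZ7, a repressor gene, fell 5.802-fold. MYC2 was listed at 0 counts in all 12 libraries of the series, so the 0 is not read as absence of expression, and how its reads were assigned was not tested. Salicylate genes fell in 2 of 12 and rose in none. PR1, the standard salicylate marker, had 51, 40 and 47 counts in P+ and 0, 0 and 1 in P-, a ratio of 114 with a 95% counting interval of 20.2 to 4541, and PR2 fell from 6.85, 7.91 and 7.98 to 0.531, 0.332 and 0.839, while ICS1, the synthesis gene, was higher by 1.96-fold. Cytokinin genes rose in 3 of 14 and fell in 1, among them the response gene ARR9 (3.05-fold) and the synthesis gene IPT3 (2.92-fold), both higher, and the oxidase gene CKX4, which fell 2.23-fold. Auxin genes rose in 3 of 13 and fell in none, with IAA1 and IAA5 up 7.004-fold and 6.55-fold. The ethylene synthesis gene ACS6 was the single ethylene gene of 10 that rose (7.33-fold). Of 11 gibberellin genes 4 rose and 2 fell, GA20OX1 going up 3.94-fold and GA2OX8 down 2.85-fold. Strigolactone and karrikin genes rose in 2 of 10 and fell in 1: the synthesis genes D27 and MAX1 rose 2.86-fold and 2.25-fold, and BBX20 fell 3.84-fold.

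Protein families were taken by symbol or description and not from curated lists, so members can be missing and the counts are not those of whole families. Across these sets, small auxin-up RNAs (SAUR), B-box factors and glutathione transferases had more members called higher than lower, and xyloglucan endotransglucosylases more called lower. Of 23 SAUR genes, short-lived growth regulators, 12 rose (SAUR63 by 8.07-fold) and none fell. B-box factors, which act in light signalling, rose in 4 of 6 and fell in 1, led by BBX32 (52.4-fold) and BBX18 (32.05-fold). Glutathione transferases rose in 13 of 34 and fell in 1. GSTU17 rose 31.4-fold, and GSTF12, which carries anthocyanins to the vacuole, 17.8-fold. Of 28 xyloglucan endotransglucosylases, which remodel cell walls, 7 rose and 12 fell, and XTH24 went from 159, 154 and 152 CPM to 16.5, 18.2 and 18.2. SWEET sugar exporters rose in 4 of 12 and fell in 2. Aquaporins of the plasma membrane and tonoplast rose in 3 of 21 and fell in 5, among them PIP1-5, down 4.15-fold, and PIP2-3, up 3.305-fold. Of 197 cytosolic ribosomal proteins, 24 rose and none fell, a share of rises near the 10.9% of all tested genes. Their median was 0.68. Of all 217 members, including the 20 not tested, 192 had all P- values above all P+ values. The share over all tested genes was 37.7%. Of 28 cyclins 3 rose, all of D type, which is also near 10.9%. The shift of short transcripts given above was not taken out of these counts.

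Transcription factor families differed in how far they lay from the shares of all tested genes, 10.9% higher and 9.6% lower. MYB genes rose in 17 of 58 and fell in 1, NAC genes in 13 of 56 (NAC029 by 23.6-fold) and fell in 2, and Aux/IAA genes in 7 of 25 and fell in 3. Of 57 WRKY genes 9 rose and 8 fell, WRKY46 going up 13.3-fold and WRKY18 down 4.77-fold. Of 72 bHLH genes 14 rose and 9 fell, and of 65 ERF and DREB genes 13 rose and 10 fell, where ERF13 went up 18.9-fold and ERF094 down 17.3-fold. Heat shock factors rose in 4 of 19 and fell in 4. HSFA6A had 1, 0 and 1 counts in P+ and 89, 105 and 85 in P-, a ratio of 169 with a counting interval of 46.2 to 1399, and HSFA7A fell 8.93-fold. Expansins rose in 3 of 16 and fell in none, and the 8 core histone genes found by symbol or description were not called.

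**Figure D4:**
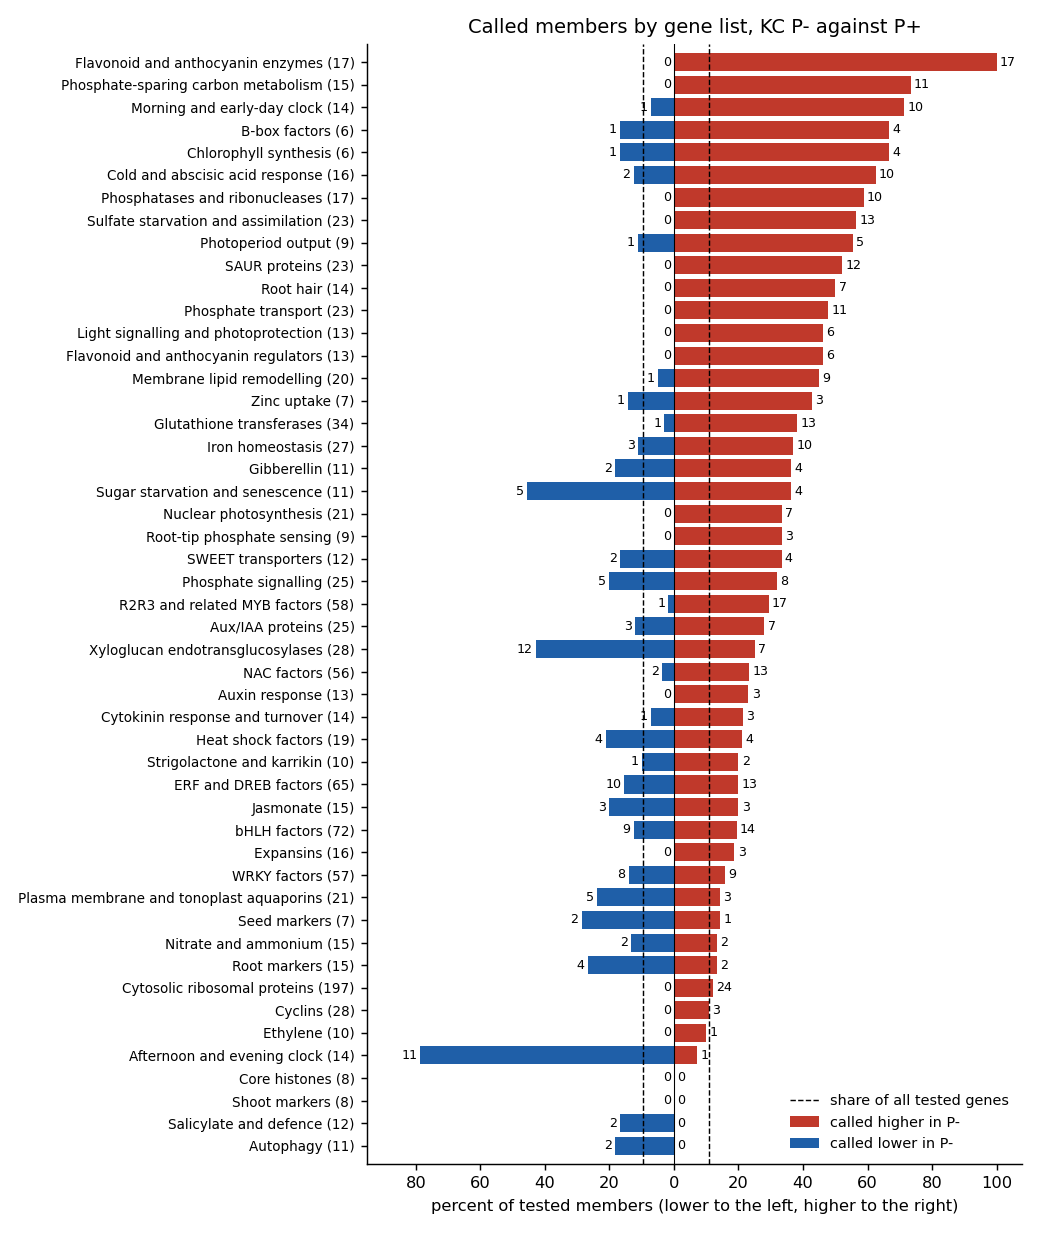
Percent of the tested members of each list or family with 5 or more tested members that were called higher in P- (red, to the right) or lower (blue, to the left) in KC, with the tested number in brackets and the called number beside each bar. Dashed lines mark the shares of all tested genes, 10.9% higher and 9.6% lower, and the flavonoid enzymes (17 of 17 higher) and the evening clock (11 of 14 lower) lie farthest from them.

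Among cell type markers, those of roots rose in 2 of 15 and fell in 4. The fallers were Casparian strip genes of the endodermis, CASP1 at 34.2, 32.5 and 29.3 CPM in P+ and at 13.9, 14.7 and 13.2 in P-, CASP2 (2.49-fold lower), CASP5 (2.14-fold lower) and PER64 (2.12-fold lower), while the endodermal regulator genes SCR and SHR were higher by 1.32-fold and 1.42-fold. The stem cell genes PLT2 and WOX5 rose 2.45-fold and 2.13-fold, and PLT2 was not called without KC P+ replicate 3. None of the 8 shoot markers tested was called at these limits by edgeR. Of 7 seed genes tested 1 rose and 2 fell, all at low level, with CRA1, a storage protein gene, at 1.91, 0.873 and 2.27 and at 0.531, 0.775 and 0.599. The flower and pollen list had 1 testable gene, VGD1, with 0, 0 and 0 counts in P+ and 17, 18 and 16 in P-.

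Promoter motifs were counted on both strands from 250 bases before to 50 bases after the gene start. P1BS stood in 6.29% of the windows of tested genes, in 8.27% of genes called higher, 13.9% of those higher by at least 8-fold and 17.0% of those higher by at least 32-fold. Among genes called lower its share was 7.03%. The evening element stood in 5.87% of all tested windows, in 13.6% of genes called lower, 27.1% of those lower by at least 8-fold and 37.5% of those lower by at least 32-fold, and in 5.02% of genes called higher. The G-box stood in 8.76% of all tested windows, 13.9% of genes called higher and 20.8% of those higher by at least 8-fold. The CCA1-binding site (AAAAATCT), which differs little from the evening element, stood in 7.92% of all, 7.57% of higher and 8.87% of lower genes. By list, P1BS matched 11 of 18 windows of phosphatases and ribonucleases and 11 of 21 of lipid genes, but 4 of 27 of transporters. The evening element matched 9 of 14 evening clock genes and 6 of 17 cold and abscisic acid genes, and the G-box 10 of 14 morning clock genes. With the 250 bases before the start alone, P1BS matched 9 of 18, 7 of 21 and 3 of 27 windows of the phosphatase, lipid and transporter lists, and the evening element 20.6% of genes lower by at least 8-fold. By their letters a P1BS and an evening element cannot overlap, so none could be found that did. A match is a string of letters and not a site of binding.

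**Figure D5:**
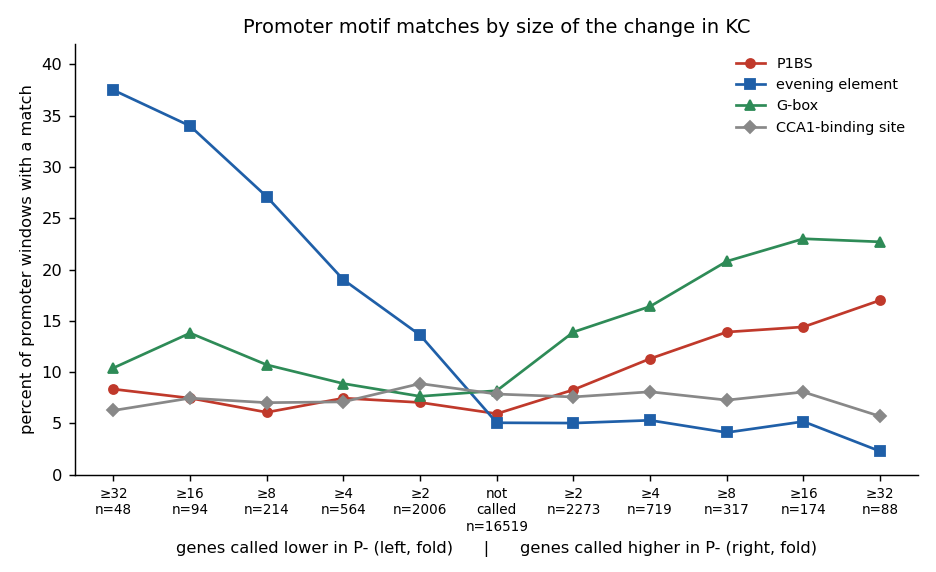
Percent of promoter windows with a match to each of 4 motifs (vertical axis) for genes called lower in P- (left, by fold), genes not called (middle) and genes called higher (right, by fold), with the number of windows under each class. The evening element climbs to 37.5% at the left, P1BS and the G-box reach 17.0% and 22.7% at the far right, and the CCA1-binding site stays between 5.68% and 8.87%.

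The response of KC was set beside that of phod2 through the test of the difference itself. Of the 4292 genes called in KC, 3447 were also called in phod2 in the same direction. The 2 responses differed by the same limits in 319 of the 4292 genes (7.43%), against 3.08% of all tested genes. The KC change by which the 4292 were chosen is also part of this difference, so a higher share can follow from the choice alone. In 104 of the 319 genes the log2 change in KC lay above that in phod2, and in 215 below it. The core phosphate gene SPX1 rose more steeply in KC, by a log2 of 1.195 ± 0.12 (edgeR adjusted p = 2.52e-05), with a change of 4.41 in KC against 3.21 in phod2. Its levels were higher in phod2 in both conditions, at 55.9, 51.8 and 54.2 CPM in P+ and at 472, 566 and 464 in P-, so that the rise in CPM was larger there than in KC. AT3G25240, annotated as a DUF506 protein and chosen after its values were seen, was the single gene that had 0 counts in all 3 KC P+ libraries and at least 1 CPM in each of the other 9. It stood at 3.18, 2.27 and 2.696 in KC P-, at 1.72, 1.12 and 1.07 in phod2 P+ and at 26.5, 32.8 and 27.8 in phod2 P-. IRT1, FRO2 and CYP82C4 of the iron list rose in KC but had log2 changes of 0.30, 0.30 and -1.12 in phod2. CHS rose less in KC than in phod2, with a difference of -2.36 ± 0.13 on the log2 scale, and CASP1 fell in KC at a log2 of -1.196 against -0.15. Replicate 2 of phod2 P- stood apart from its group, and it enters these differences but not the levels of KC.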

How the data were processed

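RNA-seq of 12 seedling libraries in 4 groups of 3 was used. The deposited table holds raw gene counts and, per the file headers, FPKM values made by the authors, and for the aligner, counting tool and strand setting nothing is stated in the labels or headers. The submitters' processing notes name the mouse build mm10 for all 12 samples, which the Arabidopsis gene IDs contradict, so the build of the reads is uncertain. Of the gene IDs, 32548 matched RefSeq TAIR10.1, where start and end were identical for 99.95%, so coordinates are those of that build. Counts of all 12 libraries were fitted with edgeR 4.0.16 (R 4.3.3): TMM factors, filterByExpr with a smallest count of 10, 4 group means, glmQLFit and glmQLFTest, with Benjamini-Hochberg adjustment over the 20891 genes tested. Calls were made at 0.05 for the adjusted p together with a change of 2-fold or more. CPM values use TMM library sizes, n is 3 per group, and counting intervals are exact at 95% and cover counting error only. Each SE of a log2 change was derived from the test, as the absolute log2 change over the square root of its F statistic. P-values set a difference against the spread between biological replicates, which was estimated over all 4 groups, phod2 P- replicate 2 included. Genes named by the rule are a panel, the 6 largest rises and falls without overlap at 20 CPM or more, and up to 3 called members with the largest change per list. Other list members were added after their values were seen. The members and lists were chosen with earlier results of these data known. Alternatives were RLE and upper-quartile factors, no filter, DESeq2 1.42.0, limma 3.58.1 on log2(FPKM + 1) or log2(FPKM + 0.1), the KC libraries alone, a replicate block, and leaving out libraries. The test was also run on simulated counts with far fewer changed genes and no outlying library, so that run cannot vouch for it in these data. Same-numbered KC libraries had correlations of their deviations between -0.0021 and 0.0104, so the numbers were not taken to pair them.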

Additional observations from a re-analysis of the deposited data

Results flagged for a closer look

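For 27 of the 164 genes named by the rule, 159 of them called in KC, the response to the phosphate condition differed between KC and phod2. The share was 3.08% over all tested genes and 7.43% over the genes called in KC. Many of the named genes were chosen for a large change in KC, which is part of this difference, so a higher share can follow from the choice alone. This was called in edgeR's test of that difference at the same adjusted p and fold limits. List members added later, such as FRO2, were not counted here. The values are the log2 change in KC minus that in phod2, from 3 libraries per group. Among phosphate genes with a larger value in KC they were 1.195 for SPX1, 1.90 for PAP17, 1.71 for PS2, 1.37 for GDPD1 and 2.43 for G3Pp1. Among phosphate and pigment genes with a smaller value in KC they were -1.41 for RNS1, -1.22 for NPC4 and -2.36 for CHS. Iron genes had larger values in KC, with 3.67 for IRT1, 6.97 for CYP82C4, 2.29 for NAS2 and 5.66 for AT3G12900, where AT3G12900 is annotated as an oxygenase. The importer genes of sulfate and nitrate had 1.64 for SULTR1;1 and 1.85 for NRT2.1. Defence-related genes lay on both sides, with 2.43 for PDF1.2A and 2.48 for WRKY46 above 0, and -1.25 for VSP2, -3.51 for PR1, -3.09 for PR2 and -1.59 for WRKY18 below it. Seed storage and endodermis genes had -4.75 for CRU3, -3.95 for CRA1 and -1.04 for CASP1. Growth-related genes had -1.89 for GA2OX8, -1.55 for XTH33 and -1.34 for XTH24, and the sugar exporter gene SWEET14 had 2.29. Leaving out 1 KC library ended the call in at least 1 case for RNS1, PR1, CASP1, CRU3, XTH33 and SWEET14. Replicate 2 of phod2 P- deviated from its group by 33.6 to 34.8 times the counting variance, against 1.58 to 2.25 within the KC groups; without it, 389 in place of 319 of the genes called in KC differed.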

How the results depend on the processing

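The 4292 calls in KC ranged from 4094 to 4607 under the other normalizations, filter, tool and library choices, and from 4252 to 4336 when 1 KC library was left out. The exception was limma on log2(FPKM + 1), with 2718 calls, 1325 of them higher, and 168 genes with a called difference from phod2 in place of 319. The pseudocount of 1 shrinks changes of weakly expressed genes by construction, and with 0.1 the counts were 4094, 2103 and 326. Leaving out phod2 P- replicate 2 gave 4404 calls and 389 differences. Of 2453 values for the named genes, 2408 kept their direction and their side of the threshold, 43 lost the call and 2 changed sign. Both sign changes were of PHR1, which was not called, at a log2 of 0.024 with upper-quartile factors and 0.009 without KC P+ replicate 2, and leaving out 1 KC library gave -0.0628 to 0.009. Upper-quartile factors put the median log2 of all genes at 0.0568 in place of 0.008. Calls lost without 1 KC library were those of PHO1;H1, PHT1;7, ZIP9, ZIP1, PLT2, EM1 and CRU3, the last in 4 of 6 cases. Of 378 values for differences from phod2, 29 lost the call, and of 1500 list counts 66 moved by over 1.5 times. The replicate block gave 4287 calls, 4267 of them shared, and 308 differences from phod2, in libraries whose numbers show no pairing. Depth limits genes with few counts, such as the MIR399 loci, and the cause of other changes was not tested.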

Other observations

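The 12 largest rises and the 12 largest falls in absolute level were listed after the values were seen. The largest rises were those of RCA, the Rubisco activase gene, from 4793 ± 111 CPM (mean ± SD, n = 3) in KC P+ to 9965 ± 183 in P-, and of the antenna gene LHCB1.1, from 364 ± 8.89 to 4928 ± 76.8. LHCB1.3, the near-identical neighbour of LHCB1.1, was among the largest falls, from 11464 ± 91.0 to 9629 ± 84.9, without being called. Reads of the 2 copies may have been exchanged. CHLH, a magnesium chelatase subunit gene, rose from 835 ± 4.16 to 4034 ± 78.1, and LHCB3 from 1397 ± 37.1 to 4369 ± 77.3. RBCS1A was higher by 3109 CPM without being called. The largest falls were those of RBG7, an RNA-binding protein gene with a known daily rhythm, from 2539 ± 66.4 to 161 ± 5.33, and of THI1, a thiamine synthesis gene, from 4449 ± 41.3 to 2208 ± 85.5. The catalase genes went opposite ways, with CAT2 rising from 328 ± 6.48 to 2502 ± 58.3 and CAT3 falling from 2046 ± 27.1 to 789 ± 4.87. TGG1, a myrosinase gene of glucosinolate defence, fell from 2581 ± 19.0 to 1242 ± 15.4. The ribosomal RNA gene AT3G41768 rose from 394 ± 4.95 to 2437 ± 290.3.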
